A study of Mus musculus with 6 samples.

Results

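The genes of the major histocompatibility complex (MHC, called H2 in the mouse) and of antigen presentation were followed in epididymal white adipose tissue of Pparg ldi/+ mice and of wild-type mice. The members were all genes whose single platform symbol starts with H2-, together with B2m, Tap1, Tap2, Tapbp, Cd74, Ciita, Psmb8, Psmb9, Psmb10, Psme1, Psme2 and Cd1d1. The rule gave 34 genes among the 18193 genes with a symbol on the array. They fell into 13 class I heavy chain genes, 11 class II genes (with Cd74 and Ciita), 8 genes of class I assembly and the immunoproteasome, Cd1d1, and H2-Ke6, which shares the H2- prefix and the chromosomal region but encodes a dehydrogenase and no MHC chain. Psme2 had no probe set with a single symbol and so has no value. Another 16 probe sets carry a member's symbol together with other symbols and name no gene here.

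The Pparg ldi/+ group held 3 male mice, heterozygous for the ldi allele of Pparg that the labels tie to lipodystrophy, and the wild-type group held 3 litter-matched males. All were 10 weeks old and of a mixed C57BL6;129Sv background, and each mouse gave 1 Affymetrix MOE430v2.0 array. Each Pparg ldi/+ mouse kept 1 wild-type copy, and the fat pad was measured whole. The Pparg product is a nuclear receptor that adipocytes need to form and to store lipid.

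MHC class I molecules sit on nearly all nucleated cells. A heavy chain pairs with beta-2-microglobulin (B2m) and carries peptides that the proteasome cuts in the cytosol and the TAP transporter brings into the endoplasmic reticulum. Class II molecules are made of an alpha and a beta chain and carry peptides from the endosome, mainly in macrophages, dendritic cells and B cells. The invariant chain (Cd74) escorts them, H2-DM loads them, and the coactivator CIITA (Ciita) switches their genes on. In adipose tissue, macrophages and adipocytes have both been described as cells that present antigen.

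Promoter sequences are shown because these gene families are known for shared promoter elements. The RefSeq promoter table (build GRCm38.p6, 250 bases before to 50 after a start site) matched 23 of the 34 members by symbol. H2-Eb1 (chr17:34305767-34305846, plus strand) and H2-Aa (chr17:34287844-34287923, minus strand) are printed over 80 bases upstream of the start. Capitals mark the Y box (CTGATTGG) in both and the X1 box in H2-Eb1. The X1 box is the run of 11 capitals in H2-Eb1, searched with any base allowed at the third, the fourth and the seventh position. H2-Aa held no match to these letters, and looser forms were not searched. The X1 box and the Y box are the elements at which the RFX and NF-Y factors that recruit CIITA are known to bind.
H2-Eb1: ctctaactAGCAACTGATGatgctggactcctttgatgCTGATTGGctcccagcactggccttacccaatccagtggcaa
H2-Aa: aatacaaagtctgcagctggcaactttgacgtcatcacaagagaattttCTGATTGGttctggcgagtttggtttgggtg

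Of the class I genes, H2-Q10 (chr17:35469901-35469960, plus strand), H2-D1 (chr17:35262911-35262970, plus strand) and H2-K1 (chr17:34000411-34000470, minus strand) are printed over 60 bases that begin at the same 12 letters in each. The capitals mark the 10 bases at the kappaB element of the classical genes, a binding site of NF-kappaB. The motif searched was these letters of H2-K1.
H2-Q10: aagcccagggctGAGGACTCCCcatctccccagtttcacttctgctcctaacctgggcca
H2-D1: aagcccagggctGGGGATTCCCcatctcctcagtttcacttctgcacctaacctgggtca
H2-K1: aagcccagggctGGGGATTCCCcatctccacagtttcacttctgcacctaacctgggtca
H2-D1 and H2-K1 were identical at 59 of these 60 bases, and H2-Q10 was identical to each of them at 55. Counted from 1 at the 5′ end of the capitals, with the H2-K1 base given before the H2-Q10 base, H2-Q10 differed by G2A and T6C. Near-identical sequence of this kind also runs through the transcripts of the class I family, and a probe can read more than 1 of them.

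The motifs were searched as letters on both strands and no 2 of them share letters in the windows shown. The Y box was found in 10 of the 23 members, against 4.70% of all 27025 genes with a promoter, and the X1 box in 5 of 23, against 1.14%. Neither was limited to class II. The Y box lay in 4 of 8 class I, 4 of 7 class II and 2 of 7 assembly and immunoproteasome genes. For the X1 box these counts were 1 of 8, 3 of 7 and 1 of 7. The kappaB letters were found in H2-K1 and H2-D1 only, 2 of 23, against 0.126% of genes. They were taken from H2-K1, and H2-D1 is nearly identical there. Both matches were thus fixed in advance, and this count is no test of enrichment. An interferon-stimulated response element (GAAA, any 2 bases, GAAA) was found in B2m and Psme1, 2 of 23, against 3.99%. A match of letters is a description of the sequence and not a shown site, and several of these promoters are copies of one another. The promoters of Psmb9 and Tap1, which are neighbours on opposite strands, overlap and hold the same Y box.

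The signals below are scaled intensities, and log2 values are of the signal plus 32. Genotypes were compared with limma over the 11201 genes bright enough to be tested, with adjustment over all of them, and "rose" and "fell" mean past an adjusted p of 0.05. By this rule 16.3% of all tested genes were higher and 16.4% were lower in Pparg ldi/+ fat, 32.7% in all. Among the members, 24 of 34 were tested, of which 13 rose, 2 fell and 9 did not pass. The arrays of the genotypes did not overlap, with Pparg ldi/+ above, in 14 of the 24, against 23.6% of all tested genes, and with Pparg ldi/+ below in 2 of the 24, against 24.0% (47.6% of all tested genes for both directions). The median log2 difference was 0.65 over the 24 members and 0.00 over all tested genes. Of the members that passed the brightness filter, H2-Q5 did so through its Pparg ldi/+ values alone. With 3 arrays in each group an exact permutation test of a single gene cannot give a p below 0.1.

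**Figure D1:**
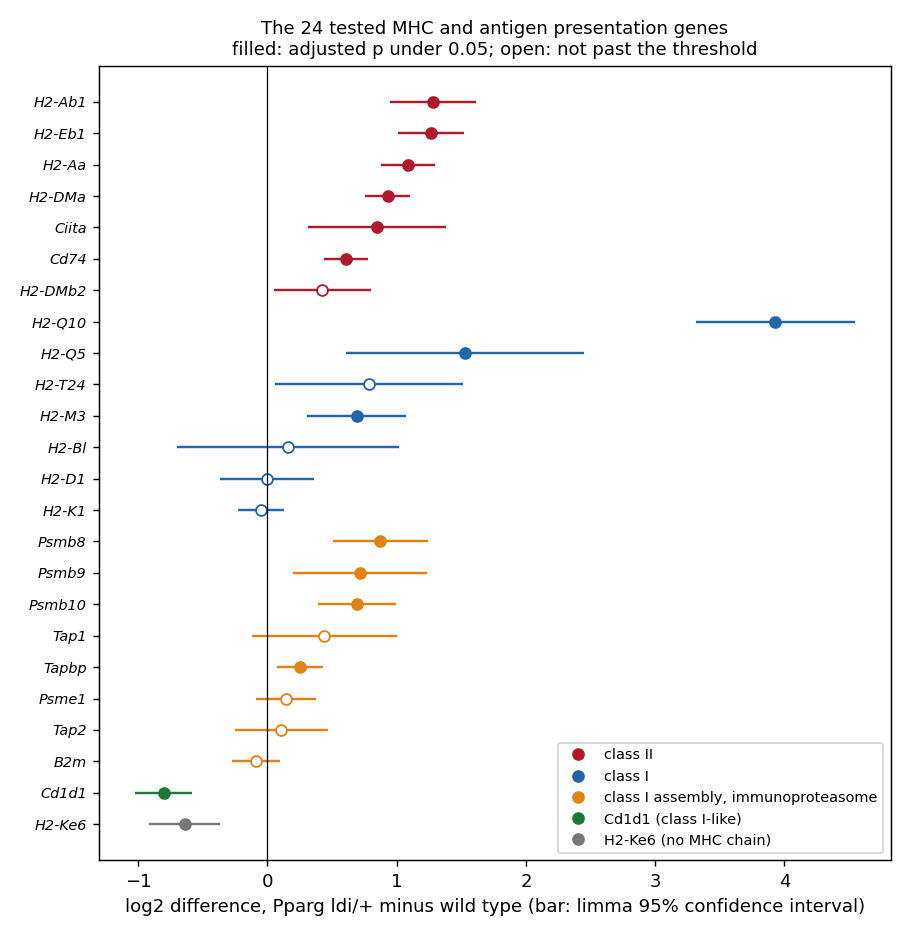
Log2 difference of Pparg ldi/+ minus wild type (x axis, with limma's 95% confidence interval) for the 24 tested members, ordered by class. Class II genes lie between 0.43 and 1.28, H2-K1, H2-D1 and B2m lie at or near 0, H2-Q10 stands apart at 3.93, and Cd1d1 and H2-Ke6 lie below 0.

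Most of the tested class II genes rose. Of 11 genes, 7 were bright enough to be tested, and 6 of them rose, against 16.3% higher among all tested genes. The rises were 1.53-fold to 2.43-fold, in H2-Ab1, H2-Eb1, H2-Aa, H2-DMa, Ciita and Cd74. The median of the 7 was a log2 difference of 0.93. H2-DMb2 did not pass.

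H2-Aa, the alpha chain of the I-A molecule, had signals of 10722, 12515 and 9973 on the Pparg ldi/+ arrays, against 5047, 5028 and 5428 on the wild-type arrays. Every Pparg ldi/+ value lay above every wild-type value. The rise was 2.13-fold (log2 1.09, SE 0.091, limma adjusted p = 4.91e-05). Its size depended on the probe set: the 4 sets of H2-Aa bright enough for the filter differed by 0.99 to 1.90. H2-Ab1, its beta chain partner, had signals of 9539, 9721 and 7046 in Pparg ldi/+, against 3334, 4200 and 3199 in wild type. It rose 2.43-fold (log2 1.28, SE 0.145, limma adjusted p = 0.000247), again without overlap. H2-Eb1, the beta chain of I-E, had signals of 14889, 16144 and 13161 in Pparg ldi/+, against 5630, 7110 and 5613 in wild type, and rose 2.41-fold (log2 1.27, SE 0.112, limma adjusted p = 6.58e-05). The confidence intervals of the 3 chains overlap: 0.88 to 1.30 for H2-Aa, 0.95 to 1.61 for H2-Ab1 and 1.01 to 1.52 for H2-Eb1.

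The alpha chain of I-E, H2-Ea, is a transcribed pseudogene in the RefSeq table. Its brightest probe set had signals of 30.3 to 34.4 in Pparg ldi/+ and 38.9 to 41.6 in wild type, too dim to be tested. Whether H2-Ea is transcribed at all in this fat could not be read from values this low.

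Genes that load and escort class II had smaller differences than the chains, and only that of Cd74 was tested against theirs. H2-DMa, the alpha chain of the peptide loader, had signals of 2090, 2233 and 2059 in Pparg ldi/+, against 1090, 1122 and 1091 in wild type. It rose 1.91-fold (log2 0.93, SE 0.078, limma adjusted p = 4.85e-05), and the arrays of each genotype lay close together. H2-DMb2, a beta chain of the same loader, had signals of 386, 406 and 286 in Pparg ldi/+, against 243, 243 and 286 in wild type. Its log2 difference of 0.43 did not pass (limma adjusted p = 0.0801), and its value on Pparg ldi/+ array 3 lay at that of wild-type array 3. Without Pparg ldi/+ array 3 it passed, at 0.57. The 3 probe sets of H2-DMb2 bright enough for the filter differed by 0.13 to 0.43, and the genotypes overlapped in each. The one read gave the largest difference.

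Cd74, the invariant chain, had signals of 21629, 23093 and 20187 in Pparg ldi/+, against 14074, 15055 and 13357 in wild type. It rose 1.53-fold (log2 0.61, SE 0.074, limma adjusted p = 0.000388) without overlap. Within each array the log2 ratio of H2-Aa to Cd74, set to a wild-type mean of 0, was 0.44, 0.57 and 0.43 in Pparg ldi/+, against -0.03, -0.13 and 0.15 in wild type. The ratios of H2-Ab1 and H2-Eb1 to Cd74 were also higher in Pparg ldi/+, by 0.67 ± 0.178 and 0.66 ± 0.053 (SD, n = 3), and did not overlap with wild type. The exact permutation p was 0.1 for each of these 3 ratios, the smallest possible, and 0.15 adjusted over the 6 ratios computed. Cd74 was among the brightest genes of the array, brighter than 99.6% of tested genes, and whether this limited its measured rise was not tested.

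Ciita had signals of 466, 493 and 303 in Pparg ldi/+, against 274, 232 and 155 in wild type, and rose 1.80-fold (log2 0.85, SE 0.235, limma adjusted p = 0.0238). The lowest Pparg ldi/+ value and the highest wild-type value lay close together. This call ended without Pparg ldi/+ array 1 (log2 0.76), without Pparg ldi/+ array 2 (0.72) and without wild-type array 3 (0.64). The other probe set of Ciita bright enough for the filter differed by 1.13.

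The remaining class II members were dim. H2-Oa, a chain of the DM inhibitor H2-O, had signals of 195, 169 and 160 in Pparg ldi/+, against 33.7, 65.6 and 50.6 in wild type, and the genotypes did not overlap. With no brightness filter it rose, at a log2 difference of 1.35 (limma adjusted p = 0.0052). H2-Ob, its partner chain, had signals of 75.4 to 134 in Pparg ldi/+ and 45.9 to 85.8 in wild type, and H2-Eb2 of 124 to 170 in Pparg ldi/+ and 43.3 to 128 in wild type. The genotypes overlapped in both.

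**Figure D2:**
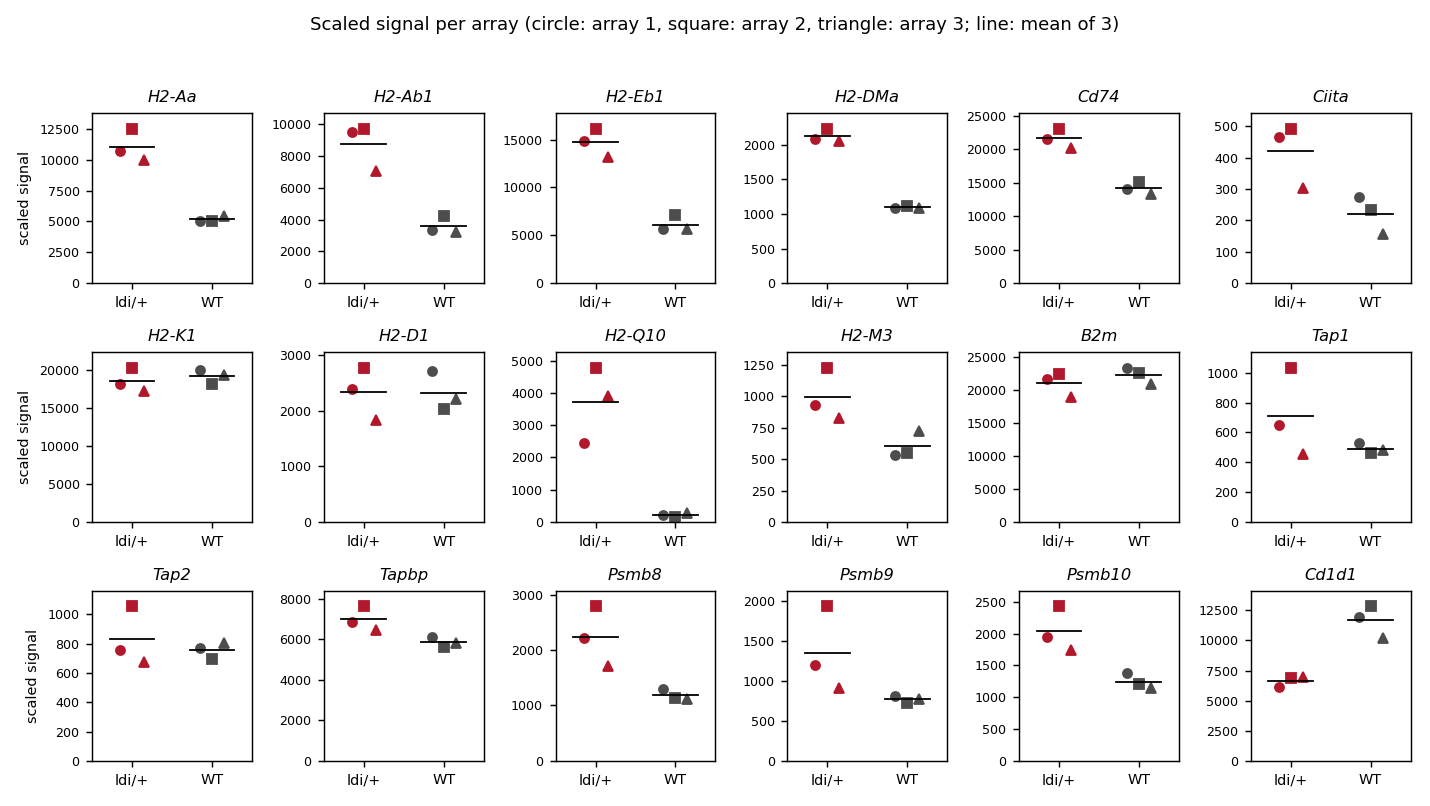
Scaled signal of 18 members on each array (points, one per mouse, with array 1 as circle, array 2 as square and array 3 as triangle) and the mean of each genotype (line), with Pparg ldi/+ left of wild type. The genotypes separate for H2-Aa, H2-Ab1, H2-Eb1, H2-DMa, Cd74, H2-Q10 and Cd1d1 and overlap for H2-K1, H2-D1, B2m, Tap1 and Tap2.

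The classical class I genes and B2m, the light chain that all class I molecules share, differed little. H2-K1 had signals of 18223, 20381 and 17309 in Pparg ldi/+, against 20114, 18245 and 19397 in wild type. The genotypes overlapped, and the log2 difference was -0.05 (95% confidence interval -0.22 to 0.13, limma adjusted p = 0.670). H2-D1 had signals of 2386, 2775 and 1826 in Pparg ldi/+, against 2710, 2030 and 2219 in wild type, and a log2 difference of 0.00 (95% confidence interval -0.37 to 0.36, limma adjusted p = 0.987). B2m had signals of 21633, 22423 and 18910 in Pparg ldi/+, against 23376, 22617 and 20904 in wild type, and a log2 difference of -0.09 (95% confidence interval -0.27 to 0.09, limma adjusted p = 0.436). These intervals leave out a rise of the size seen for H2-Aa. They do not show that the levels were equal.

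H2-K1 was measured by cross-hybridising probe sets (suffix x_at) alone, which can read related class I transcripts. Its 4 probe sets differed by -0.22 to -0.04. H2-D1 had 9 probe sets, 5 of them bright enough for the filter. The brightest 3, all with the suffix x_at, differed by -0.15, -0.16 and -0.18, and each overlapped between the genotypes. The exception was a dim x_at set with signals of 282, 515 and 338 in Pparg ldi/+, against 94.5, 198 and 111 in wild type, a log2 difference of 1.31.

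B2m and H2-K1 were brighter than 99.8% and 99.7% of tested genes. Adipoq, the adiponectin gene, lay at a like brightness, above 99.6% of tested genes, and fell by 1.17 on the log2 scale on the same arrays (limma adjusted p = 0.000266). Whether a rise would show in full at this brightness was not tested.

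Of the 7 tested class I genes, 3 rose, against 16.3% higher among all tested genes. They were the non-classical H2-Q10, H2-M3 and H2-Q5. H2-Q10, known as a secreted class I molecule made mainly by the liver, had signals of 2457, 4788 and 3909 in Pparg ldi/+, against 218, 141 and 279 in wild type. It rose 15.2-fold (log2 3.93, 95% confidence interval 3.31 to 4.54, limma adjusted p = 1.7e-05) and was the member with the largest difference. Of 3 hepatocyte genes measured, Alb, the albumin gene, had signals of 222 to 261 in Pparg ldi/+ and 368 to 495 in wild type and fell, and Apoa1 and Ttr reached a signal of at most 46.1 on any array. The summed signal of these 3 genes was 302, 278 and 253 in Pparg ldi/+, against 549, 372 and 385 in wild type. The cell type in which H2-Q10 rose was not tested. Leaving out single arrays gave log2 differences of 3.70 to 4.20 for H2-Q10, all past the threshold. H2-Q10 is also the member printed above whose 10 bases differ from the kappaB letters of H2-K1 and H2-D1. Those letters were taken from H2-K1 itself, and their bearing on the rise was not tested. H2-Q10 was read by a single probe set, and how far related class I transcripts hybridise to it was not tested.

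H2-M3, which presents formylated peptides of bacteria and mitochondria, had signals of 927, 1227 and 828 in Pparg ldi/+, against 529, 552 and 724 in wild type. It rose 1.61-fold (log2 0.69, SE 0.168, limma adjusted p = 0.0136). H2-Q5, a transcribed pseudogene in the RefSeq table, had signals of 328, 629 and 380 in Pparg ldi/+, against 210, 49.6 and 174 in wild type. It rose 2.89-fold (log2 1.53, SE 0.404, limma adjusted p = 0.0191), a call that ended without Pparg ldi/+ array 2 (log2 1.27). H2-T24, a gene of the T region, had signals of 249, 495 and 170 in Pparg ldi/+, against 167, 143 and 135 in wild type. The genotypes did not overlap, but its log2 difference of 0.79 did not pass (limma adjusted p = 0.0923). Its log2 difference was 0.41 without Pparg ldi/+ array 2, and 1.10 without Pparg ldi/+ array 3, where it passed. H2-Bl, another transcribed pseudogene, differed by 0.16 with overlap and did not pass.

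The 6 other class I members, H2-T3, H2-T18, H2-M10.1, H2-M9, H2-Q2 and H2-D4, were too dim to be tested. Their signals ran from 0.847 to 231 over all arrays. Of these, H2-M9 was without overlap, with signals of 15.8 to 35.1 in Pparg ldi/+ and 55.6 to 57.7 in wild type, which lie near the bottom of the range. Over all 13 class I members, tested or not, the median log2 difference was 0.18.

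**Figure D3:**
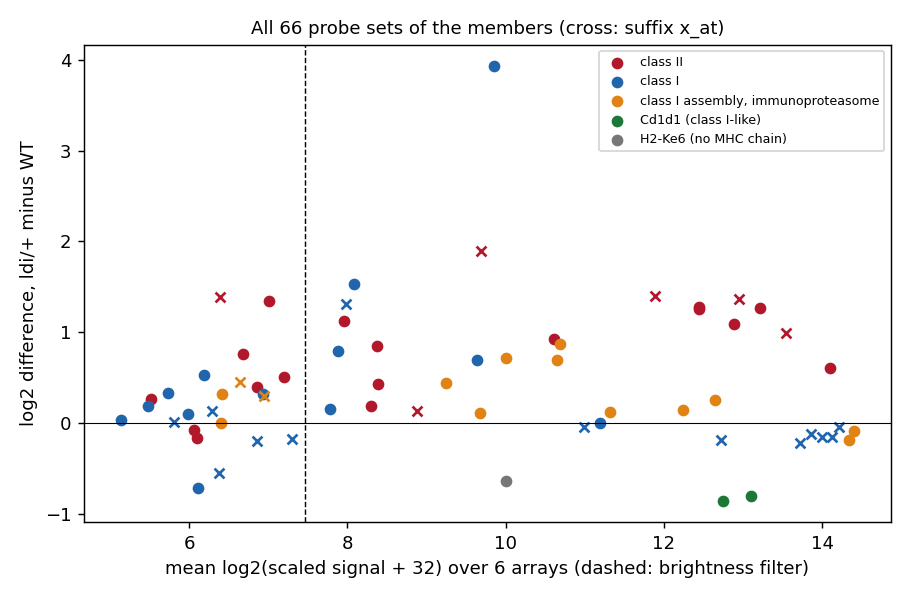
All 66 probe sets of the members, with the mean log2 signal of the 6 arrays on the x axis and the log2 difference of Pparg ldi/+ minus wild type on the y axis. The bright class I and B2m probe sets line up just under 0 at the right, while class II probe sets of like brightness lie between 0.61 and 1.40, and crosses mark cross-hybridising sets.

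Class I assembly and the immunoproteasome were split. Of the 8 genes, all of them tested, 4 rose and 4 did not pass, against 16.3% higher among all tested genes. Their median log2 difference was 0.35. The genes that rose were the 3 catalytic subunits of the immunoproteasome and Tapbp. When single arrays were left out, the calls of Psmb9 and Tapbp held in 1 and 2 of 6 comparisons. Psmb8 had signals of 2218, 2788 and 1709 in Pparg ldi/+, against 1300, 1140 and 1125 in wild type, and rose 1.83-fold (log2 0.87, SE 0.161, limma adjusted p = 0.00352). Psmb10 had signals of 1944, 2426 and 1734 in Pparg ldi/+, against 1379, 1203 and 1140 in wild type, and rose 1.61-fold (log2 0.69, SE 0.132, limma adjusted p = 0.0041). Neither overlapped between the genotypes.

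Psmb9 had signals of 1201, 1936 and 918 in Pparg ldi/+, against 816, 730 and 773 in wild type, and rose 1.64-fold (log2 0.72, SE 0.227, limma adjusted p = 0.0403). This call was weak. It held in only 1 of the 6 comparisons that leave out an array, the one without Pparg ldi/+ array 3 (log2 0.95), and the log2 difference was 0.43 without Pparg ldi/+ array 2, 0.77 without Pparg ldi/+ array 1, and 0.75, 0.68 and 0.72 without wild-type arrays 1, 2 and 3. It ended as well with no intensity trend, with no brightness filter and with the mean of all probe sets. That last setting also ended the call of Psmb8 (log2 0.66).

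Tapbp encodes tapasin, which bridges class I molecules to TAP. It had signals of 6858, 7611 and 6465 in Pparg ldi/+, against 6115, 5632 and 5787 in wild type, and rose 1.19-fold (log2 0.25, SE 0.079, limma adjusted p = 0.0387). The call ended without Pparg ldi/+ array 1 (0.26), without Pparg ldi/+ array 2 (0.19), and without wild-type arrays 2 (0.23) and 3 (0.25). The other probe set of Tapbp, also bright enough for the filter, differed by 0.12 and overlapped between the genotypes.

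The transporter genes overlapped between the genotypes. Tap1 had signals of 649, 1034 and 454 in Pparg ldi/+, against 528, 463 and 479 in wild type, and its log2 difference of 0.44 missed the threshold (limma adjusted p = 0.211). Its value was high on Pparg ldi/+ array 2 and below all wild-type arrays on Pparg ldi/+ array 3, so that its log2 difference was 0.14 without array 2 and 0.71, past the threshold, without array 3. Tap2 had signals of 755, 1053 and 677 in Pparg ldi/+, against 767, 693 and 802 in wild type, and a log2 difference of 0.11 (limma adjusted p = 0.645). Psme1, a subunit of the proteasome activator that interferon induces, had signals of 4965, 5873 and 4469 in Pparg ldi/+, against 4417, 4814 and 4567 in wild type, and a log2 difference of 0.14 (limma adjusted p = 0.331).

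Each immunoproteasome subunit takes the place of a constitutive one: Psmb8 that of Psmb5, Psmb9 that of Psmb6 and Psmb10 that of Psmb7. The log2 ratio of Psmb8 to Psmb5 within each array, set to a wild-type mean of 0, was 0.31, 0.80 and -0.08 in Pparg ldi/+, against 0.11, -0.04 and -0.07 in wild type, and the genotypes overlapped (exact permutation p = 0.4). The ratio of Psmb9 to Psmb6 was 0.36, 1.11 and -0.15 in Pparg ldi/+, against 0.05, -0.07 and 0.01 in wild type (exact permutation p = 0.4). Psmb5 and Psmb6 themselves rose, by 0.53 and 0.28 on the log2 scale (limma adjusted p = 0.000803 and 0.0263). The ratio of Psmb10 to Psmb7 was 0.74, 1.06 and 0.62 in Pparg ldi/+, against 0.16, -0.15 and -0.01 in wild type, without overlap (exact permutation p = 0.1, the smallest possible, and 0.15 adjusted over the 6 ratios). Psmb7 did not pass, at -0.11.

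The members that fell were Cd1d1 and H2-Ke6. Cd1d1 encodes the CD1d molecule, a class I-like protein that presents lipids to natural killer T cells and is known to be made by adipocytes. It had signals of 6124, 6848 and 6992 in Pparg ldi/+, against 11953, 12824 and 10213 in wild type. It fell 1.74-fold (log2 -0.80, SE 0.096, limma adjusted p = 0.000356) without overlap, and its other probe set differed by -0.85. H2-Ke6 had signals of 776, 756 and 849 in Pparg ldi/+, against 1155, 1146 and 1488 in wild type, and fell 1.56-fold (log2 -0.64, limma adjusted p = 0.00375). Among 4 tested class I-like genes other than Cd1d1, Mr1, which presents vitamin metabolites, fell as well, at -0.94 (limma adjusted p = 0.000216). Fcgrt, Hfe and Procr did not pass, at -0.18, -0.30 and -0.10, and 16.4% of all tested genes were lower.

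**Figure D4:**
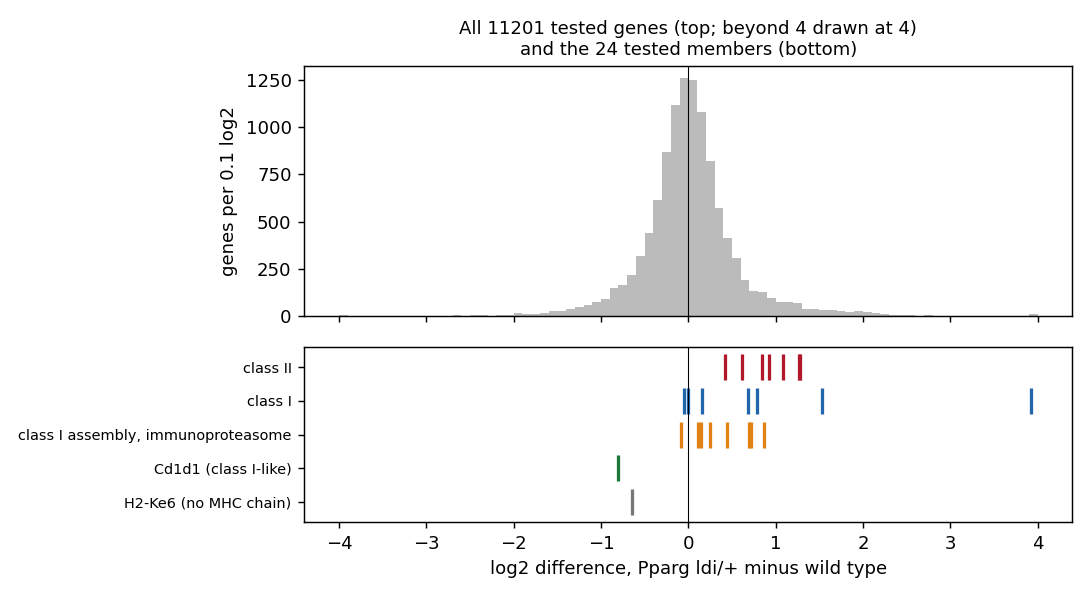
Log2 differences of all 11201 tested genes (top, number of genes per 0.1 log2) and of the 24 tested members by class (bottom, one tick per gene). All 7 tested class II genes lie right of 0, class I genes spread from -0.05 to 3.93, and Cd1d1 and H2-Ke6 lie left of 0.

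Genes that act on the class II route before and after the chains were also measured. Of 8 genes of endosomal processing, 5 rose and 1 fell, against 16.3% higher and 16.4% lower among all tested genes. Ifi30, the lysosomal thiol reductase that opens disulfides of antigens, rose 4.09-fold (log2 2.03, limma adjusted p = 8.22e-06). Ctss, the cathepsin that trims the invariant chain, rose 3.67-fold (log2 1.87), Lgmn, an asparagine-specific protease, rose 3.26-fold, and Ctsh rose 2.33-fold. Marchf1, a ubiquitin ligase that removes class II from the surface of dendritic cells and B cells, rose by 1.40 on the log2 scale, while the related Marchf8 fell, at -0.42. Marchf1 passed the brightness filter through its Pparg ldi/+ values alone, with a mean log2 of 8.48 in Pparg ldi/+ and 7.08 in wild type. Ctsb and Ctsl did not pass, at 0.01 and -0.17. Of 3 tested costimulatory genes, Cd86 rose 2.34-fold and Icosl 1.40-fold, and Cd274 did not pass, at -0.43.

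Of 15 tested regulators of MHC genes and interferon signalling, 4 rose and the rest did not pass, against 16.3% higher among all tested genes. Irf8, a factor of macrophages and dendritic cells, rose 3.23-fold, and Ifngr2, a chain of the interferon gamma receptor, rose 1.77-fold. Jak1 and Nfya rose by 0.29 and 0.35 on the log2 scale. The factors that bind the X1 box, Rfx5, Rfxap and Rfxank, did not pass, at -0.03, -0.34 and 0.10. Nlrc5, the class I counterpart of Ciita, had signals of 340, 845 and 349 in Pparg ldi/+, against 440, 351 and 444 in wild type, and was high on Pparg ldi/+ array 2 alone. Ifng, the interferon gamma gene, was too dim to be tested, with signals of 26.3 to 48.8 in Pparg ldi/+ and 3.74 to 43.9 in wild type. Among 6 genes of peptide loading and trimming, only Sec61a1 rose, at 0.33, against the same 16.3%. Calr, Canx, Pdia3, Erap1 and Tapbpl did not pass.

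The members varied together among the 3 Pparg ldi/+ mice. Of the 24 tested members, 22 had their highest Pparg ldi/+ value on array 2 and 20 had their lowest on array 3. Among all tested genes, 33.7% were highest on array 2 and 33.5% were lowest on array 3. The 2 exceptions on array 2 were Cd1d1 and H2-Ke6, the members that fell. This count depends on the scaling of the arrays: with the deposited values left unscaled, 15 of 24 were highest on array 2 and 16 lowest on array 3, and with quantile normalisation 23 and 20. These 2 scalings were tried on the order after the data were seen. Members share the array, so they are not independent counts.

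Interferon-induced genes showed the same order. All 11 tested were highest on Pparg ldi/+ array 2 and lowest on array 3, and 10 of 11 in each case with unscaled values. Irf7 had signals of 1879, 4548 and 413 in Pparg ldi/+, against 517, 503 and 574 in wild type, and Ifit1 of 1113, 2568 and 204 in Pparg ldi/+, against 282, 207 and 175 in wild type. The median difference of the 11 genes from the wild-type mean was 1.23, 2.09 and -0.05 on Pparg ldi/+ arrays 1, 2 and 3. Of the 11, 3 rose, against 16.3% of all tested genes: Cxcl10 at 3.82, Iigp1 at 1.69 and Igtp at 1.26. Cxcl10 too passed the brightness filter through its Pparg ldi/+ values alone (mean log2 of 11.08 in Pparg ldi/+ and 7.26 in wild type).

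**Figure D5:**
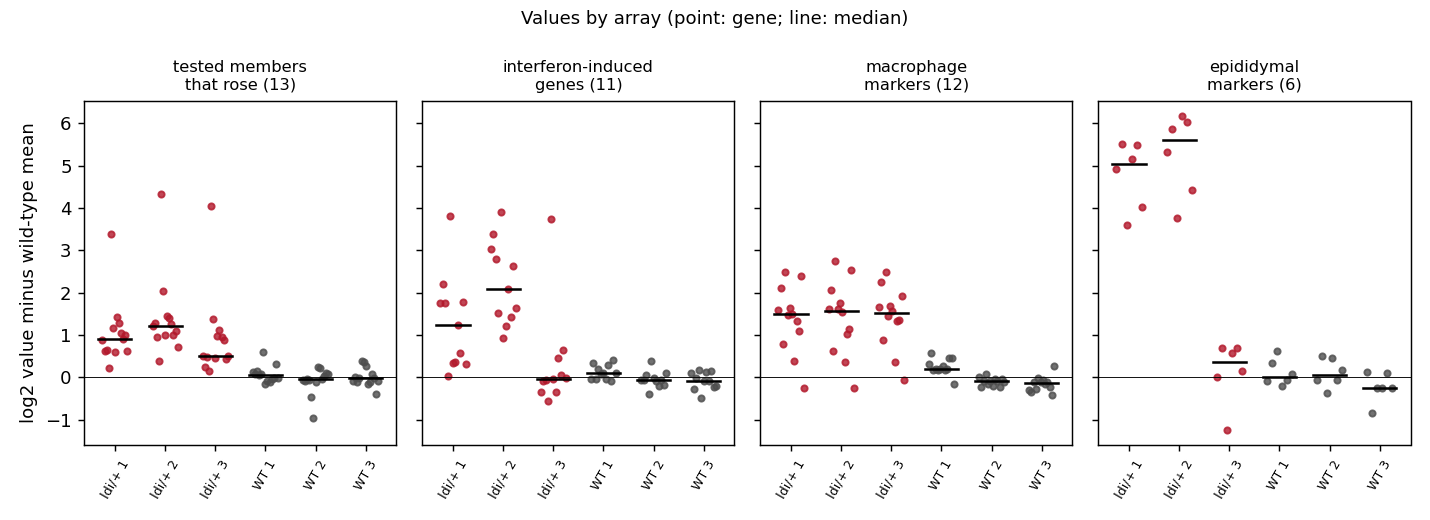
Log2 value minus the wild-type mean on each of the 6 arrays (x axis) for the 13 members that rose, the 11 interferon-induced genes, the 12 macrophage markers and the 6 tested epididymal markers, with a point per gene and a line at the median. Medians on Pparg ldi/+ arrays 1, 2 and 3 are 0.91, 1.21 and 0.52 for the members, 1.23, 2.09 and -0.05 for the interferon-induced genes, 1.50, 1.57 and 1.51 for the macrophage markers, and 5.04, 5.60 and 0.36 for the epididymal markers. The epididymal markers other than Rnase10 passed the brightness filter through their Pparg ldi/+ values alone.

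Markers of several cell types moved with the genotype or with the arrays, and their part in the results above was not tested. The counts below stand against 16.3% higher and 16.4% lower among all tested genes. Of 12 macrophage markers 11 rose, Mertk being the exception at -0.19, and their summed signal was 98920 to 101583 in Pparg ldi/+ and 40168 to 50746 in wild type. Of 6 tested dendritic cell markers 3 rose, Itgax at 2.52, Clec10a at 1.23 and Flt3 at 0.78. Batf3, Cd209a and Zbtb46 did not pass, at 0.55, 0.70 and -0.42, and Zbtb46 was lower on every Pparg ldi/+ array than on any wild-type array. For this list the summed signal of the 8 measured was 6661 to 8011 in Pparg ldi/+ and 2228 to 3131 in wild type. Of 3 tested B cell markers, Cd22 and Cd79b rose, and the summed signal over the 6 measured was 1447 to 1684 in Pparg ldi/+ and at most 817 in wild type. Of 8 T and natural killer cell markers 6 were too dim to be tested, Nkg7 rose and Cd247 fell, and the summed signal was 1219 to 2376 in Pparg ldi/+ and 578 to 864 in wild type. All 5 adipocyte markers fell, with a summed signal of 29877 to 34488 in Pparg ldi/+ and 73862 to 84030 in wild type. Of 6 endothelial markers 5 fell, with sums of 6930 to 8236 in Pparg ldi/+ and 14001 to 15082 in wild type. No marker was at 0 on any array. Flt3, Cd79b and Nkg7 passed the brightness filter through their Pparg ldi/+ values alone, and Cd247 through its wild-type values alone. In whole tissue, more cells of a type and more transcript per cell cannot be told apart.

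Epididymal transcripts were high on 2 of the Pparg ldi/+ arrays. Of the tested markers, Lcn8, Lcn9, Cst11, Cst12 and Teddm2 passed the brightness filter through their Pparg ldi/+ values alone. The summed signal of 8 epididymal markers was 18706, 26087 and 562 on Pparg ldi/+ arrays 1, 2 and 3, against 999, 527 and 408 in wild type, which is the order that the interferon-induced genes and most members followed. The members were therefore also compared between Pparg ldi/+ array 3 and wild type, with the lone array assumed to vary like the others. There 6.54% of all tested genes were higher and 7.94% lower by limma after adjustment, and 5 of 7 class II genes rose: H2-Eb1 at 1.11, H2-Ab1 at 1.10, H2-Aa at 0.95, H2-DMa at 0.88 and Cd74 at 0.51. H2-Q10 rose at 4.05 and Cd1d1 fell at -0.73. The 8 assembly and immunoproteasome genes did not pass, and their median log2 difference was 0.05. Psmb8, Psmb10 and Psmb9 were at 0.52, 0.48 and 0.24, and Ciita at 0.44. H2-M3, H2-Q5 and H2-Ke6 were at 0.45, 1.37 and -0.55.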

How the data were processed

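The authors deposited a linear signal intensity for every probe set on every array. MAS5 is named as the source of these intensities per the submitters' processing notes, for 2 of the 6 samples. Its version, its target value and any detection calls were not stated there. Per the labels' protocols RNA of 1 mouse went onto each array. The deposited medians were 59.2 to 69.4 per array, and precision is limited by the number of arrays.

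Arrays were scaled to a common trimmed mean of 500 (2% cut at each end), 32 was added, and log2 was computed here. Probe sets with 1 symbol (34945 of 45101) were named through the platform annotation, updated by gene number in RefSeq (GRCm38.p6). A gene was read by its brightest probe set, leaving out x_at sets where another existed. Genes with a mean log2 below 7.46, the median of all probe sets, were not tested. limma 3.58.1 in R 4.3.3 (lmFit, eBayes with trend, two-sided, no covariates, Benjamini-Hochberg) was fitted to all 11201 remaining genes, and the fit was tested on simulated data. Folds come from log2 differences and understate changes of dim genes. Ratios within an array had exact two-sided permutation tests.

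The members, lists, motifs and tests were chosen with earlier results of these data known. All members could be named, with values per array for 15 core genes and for the 3 largest and 3 smallest differences among those tested. Alternatives changed the offset, scaling, filter, variance model, probe set, replicate block and the arrays used.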

Additional observations from a re-analysis of the deposited data

How the results depend on the processing

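The 6 counts of calls were recomputed under 16 other settings, and 8 of the 24 tested members kept direction and side of the threshold in all of them. The counts of class II genes that rose (6) stayed between 5 and 7 throughout. With Pparg ldi/+ array 3 alone, 1616 genes were called in all (3668 with all arrays), 6 members rose and 1 fell, and 1 class I gene and 0 assembly or immunoproteasome genes rose, a fit with fewer samples. The count of assembly and immunoproteasome genes that rose (4) was the least stable: 1 with the mean of all probe sets, 2 with no brightness filter, 2 with no intensity trend, and 2 to 5 when single arrays were left out, with 2 without Pparg ldi/+ array 1, Pparg ldi/+ array 2, wild-type array 2 or wild-type array 3. The cause was not tested. With the mean of all probe sets 9 members rose, and when single arrays were left out 9 (without Pparg ldi/+ array 2) to 16 (without Pparg ldi/+ array 3).

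Signs turned only in members that did not pass. H2-D1 was at 0.057 with the mean of all probe sets, 0.048 unscaled, 0.0014 with quantile normalisation, and between -0.14 and 0.16 when single arrays were left out (0.16 without Pparg ldi/+ array 3, 0.11 without wild-type array 1). H2-K1 was at 0.0047 unscaled and between -0.11 and 0.0027 without single arrays (0.0027 without Pparg ldi/+ array 3). H2-Bl was at -0.40 with array 3 alone and between -0.20 and 0.47 without single arrays (-0.11 without wild-type array 2). With array 3 alone Psme1 was at -0.040, Tap1 at -0.10 and Tap2 at -0.15, and Tap2 was between -0.071 (without Pparg ldi/+ array 2) and 0.24 without single arrays. As a replicate block, the title's number gave 3166 called genes, 12 members that rose and 2 that fell, and ended the call of Tapbp alone among members. The numbers gave no sign of pairing the arrays: same-numbered arrays deviated with r of -0.13, -0.09 and -0.09, and 0 of 6 arrays correlated best with its own number. Correlations this small, taken within groups of 3, cannot exclude a pairing by litter. Without detection calls, no gene could be called absent, and dim members have no test.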

Other observations

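H2-M9 and H2-Ea were the dim members in which every Pparg ldi/+ value lay below every wild-type value. With no brightness filter their log2 differences were -0.72 and -0.17, and neither passed (limma adjusted p = 0.0554 and 0.622). A dim probe set of Tap1, at signals under 76, also did not overlap between the genotypes, with a log2 difference of 0.32, while the one read for Tap1 did overlap. The second probe set of B2m lay lower in all Pparg ldi/+ arrays than in all wild-type arrays, at -0.18, where the one read overlapped.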
